A study of Mus musculus with 18 samples.

Results

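Of the 45101 probe sets on the array, 9160 carried no gene symbol in the platform annotation used here. They were taken as every probe set that was not 1 of the 64 AFFX controls and that the annotation table did not list with a symbol. A further 34945 probe sets carried exactly 1 symbol and stood for 18193 genes, and 932 carried several symbols. In the annotation table, 4640 of 21900 RefSeq protein-coding mouse genes (GRCm38.p6) had no listed probe set. Whether the array lacks these genes or the table leaves them out cannot be told from this count. A probe set without a symbol is unnamed here, which does not make it a probe set without a gene, and each one is given by its probe set ID.

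The study asked how the aryl hydrocarbon receptor (AHR) shapes gene expression with and without an added ligand. Total RNA from mouse liver tumor cells was measured on Affymetrix mouse expression arrays, with 3 arrays in each of 6 groups that the design text calls biological replicates. The wild-type cells were Hepa-1c1c7, a hepatoma line, and received for 8 hr the solvent DMSO, TCDD or benzo[a]pyrene (BaP, 5 µM). The c35 cells, a mutant derivative of Hepa-1c1c7 whose AHR cannot bind DNA, received the same 3 treatments. Both ligands were dissolved in DMSO, so that all 6 groups share the solvent. The labels give the TCDD dose (5 nM) for c35 cells only, and the methods give the same dose for both lines. The c35 line is 1 mutant derivative, so that the mutation and other differences of the line cannot be told apart.

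The AHR, once bound by a ligand, moves to the nucleus, pairs with ARNT and binds DNA near genes of xenobiotic metabolism. TCDD is a poorly metabolized dioxin, and BaP is a polycyclic aromatic hydrocarbon whose metabolites can damage DNA. On this type of array a probe set is a group of short oligonucleotides chosen near the 3′ end of a transcript or expressed sequence tag, and a tag that was not placed in a gene model may have no symbol. The suffix of the ID describes the design: _at probe sets are specific to 1 transcript, _a_at probe sets recognize alternative transcripts of a gene, _s_at probe sets are shared by several transcripts, and _x_at probe sets hold probes that may cross-hybridize.

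The probe sets without a symbol were dimmer than the others. Their mean log2 signal over the 18 arrays had a median of 4.68, with quartiles of 3.54 and 5.92 and a range of 2.02 to 14.76. One-symbol probe sets had a median of 6.01, with quartiles of 4.40 and 8.11. Of the probe sets without a symbol, 70.9% lay below the median of all probe sets (5.66), against 44.8% of those with 1 symbol. The median residual SD between arrays of a group was 0.150 log2 units without a symbol and 0.142 for one-symbol probe sets weighted to the same signal. Counts of calls are therefore set beside a rate at the same signal: the probe sets without a symbol were cut into 20 bins of equal count by mean signal, and the share of one-symbol probe sets called in each bin was applied to the members of that bin. The sum is given as the number at the one-symbol rate. It is a description, and no test was made of the difference. The shares of calls by direction, by suffix and by ID number are plain shares, without this matching.

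The 2 lines and the check of the ligands can be stated briefly. Across the 18 arrays no pair was identical, and the lowest correlation between 2 arrays of a line was 0.991 in wild-type and 0.995 in c35 cells. Of 9 measured genes of a list of 10 AHR battery genes, 7 rose with BaP and 7 with TCDD, and none fell. Their median log2 change was 2.09 with BaP and 1.25 with TCDD, against 0.00 over all probe sets. Of 10 listed hepatocyte markers, 8 were measured. In wild-type DMSO cells Afp and Alb lay at the 98.4th and 99.7th percentile of all probe sets, and Foxa2 at the 87.3rd. Ttr, Hnf4a, Apoa1 and Apob were mid-range, from the 46.9th to the 64.3rd, and Fgb lay at the 23.1st. Among markers of other cells, Csf1r, Col1a1, Col3a1 and Pdgfrb were at or above the 94.6th percentile, and Ptprc, Cdh5 and Lrat were at or below the 24.7th. Pecam1, Cd3e, Kdr and Cd68 lay in between, at or below the 70.5th. Replicate 1 of wild-type DMSO stood apart from its group. The difference between the 3′ and 5′ control probe sets of Actb, a measure that grows as RNA or labelled product is shortened, was 1.38 log2 units there and 0.85 and 0.81 in the other two replicates. Results that rest on that array are given with and without it.

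With BaP, the probe sets without a symbol were called lower in wild-type cells more often than one-symbol probe sets of the same signal, and called higher about as often. By limma, with an adjusted p under 0.05 and a change above 1.5-fold, 132 of 9160 were lower (1.44%) and 40 were higher (0.437%). Over all 45037 probe sets tested, 0.644% were lower and 0.684% higher, or 1.33% in either direction. At the one-symbol rate 34.6 would have been lower (0.377%) and 40.4 higher (0.441%), so that the observed count was 3.82 times that rate for lower and 0.991 times for higher. Lower calls made up 76.7% of the 172 calls without a symbol and 37.2% of the 419 calls with 1 symbol. Without replicate 1 of wild-type DMSO the lower count was 71, against 26.4 at the one-symbol rate (2.69 times), and without replicate 2 it was 222, against 52.6 (4.22 times). With only the arrays of the 2 groups compared it was 54, against 25.2 (2.14 times).

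With TCDD, few probe sets without a symbol were called in wild-type cells: 11 were lower (0.120%) and 5 higher (0.0546%). Over all probe sets 0.0622% were lower and 0.238% higher, or 0.3% in either direction. The one-symbol rate at the same signal gave 4.32 lower and 16.8 higher, so that the count was 2.55 times that rate for lower and 0.298 times for higher. Lower calls made up 68.8% of the 16 calls, against 14.8% of the 115 calls with 1 symbol. The excess of lower calls rested on single arrays. The lower count was 2 against 2.36 at the one-symbol rate without replicate 1 of wild-type DMSO (0.848 times), and 47 against 13.1 without replicate 2 (3.58 times). It was 3 against 3.68 without replicate 1 of TCDD (0.816 times), 5 against 4.65 without replicate 2 (1.08 times) and 2 against 2.36 without replicate 3 (0.847 times). With only the arrays of the 2 groups compared it was 1, against 0.594. BaP and TCDD were compared with the same 3 DMSO arrays, so the counts of the 2 ligands are not independent of each other.

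With each of the 18 arrays left out in turn, the share lower with BaP ran from 0.775% to 2.42%, against 0.288% to 0.574% at the one-symbol rate, so that the ranges did not overlap. The log2 changes were also described without any threshold on p. For BaP, the 1st percentile of the changes was -0.70 without a symbol and -0.45 for one-symbol probe sets of the same signal, and the 5th percentile was -0.36 against -0.26. The 99th percentile was 0.44 against 0.46, and the medians were -0.01 and 0.00. The lower tail was longer without a symbol, while the centre and the upper tail nearly coincided. Without replicate 1 of wild-type DMSO the 1st percentile was -0.54 against -0.44, and the 5th was -0.29 against -0.27. For TCDD the median was -0.03 against 0.00, the 1st percentile was -0.49 against -0.37, and 58.5% of changes were below 0 against 49.5%. Without that array the TCDD 1st percentiles were -0.37 and -0.36, and 54.2% were below 0 against 49.8%. A fall of more than 1.5-fold, with no condition on p, was found with BaP in 1.6% of probe sets without a symbol and 0.409% of one-symbol probe sets of the same signal, and with TCDD in 0.371% and 0.121%. Without replicate 1 of wild-type DMSO these shares were 0.83% and 0.321% with BaP, and 0.0655% and 0.0461% with TCDD.

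Lower calls with BaP were fewest among the dimmest probe sets. In 4 groups of 2290 probe sets from dimmest to brightest, the numbers called lower were 0, 13, 47 and 72, whereas the one-symbol rate gave 0.926, 5.61, 11.7 and 16.3. The numbers called higher were 1, 6, 7 and 26, against 0.464, 2.91, 9.60 and 27.4 at the one-symbol rate. Of the finer bins, the one from 7.17 to 8.25 log2 units held 22 lower calls among 458 probe sets, or 4.80%, against 0.880% of one-symbol probe sets there. The share was not steady across the bright bins, with 1.97% in the bin just below it and 2.40% in the brightest.

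Many genes carry more than 1 probe set, so the rate was also taken from parts of the one-symbol probe sets. With only the brightest probe set of each gene as the comparator, the one-symbol rate gave 28.5 lower and 45.4 higher with BaP. With only the further probe sets of each gene, it gave 40.5 lower and 36.4 higher, so that 132 lower calls exceeded both.

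The 132 probe sets that fell with BaP were brighter than most probe sets without a symbol, with a median signal of 6.04 and 119 of them above the median of their kind. Their median log2 change was -0.78, with a range of -1.67 to -0.59, and 25 fell by more than 2-fold. The mean of these 132 on each array, on the log2 scale, was 7.23, 6.61 and 6.68 in wild-type DMSO, 6.32, 6.53 and 6.39 with TCDD, and 5.92, 6.02 and 6.09 with BaP. Every BaP array was below every DMSO array, as the choice of these probe sets requires, and replicate 1 of DMSO was the highest of all. On the 9 c35 arrays, which entered the choice only through the shared variance, the mean ran from 5.93 to 6.22. It lay below every wild-type DMSO array. The choice favoured probe sets that were high on those DMSO arrays, so this difference is partly built in.

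For 129 of the 132, every BaP array was below every DMSO array, so their sign could not change with 1 array left out. Over all probe sets, called or not, 20.1% had no overlap between these groups, in either direction. Without replicate 1 of wild-type DMSO, all 132 changes were below 0, as this choice nearly requires. Their median was then -0.60, and 68 of the 132 were still called. The Actb 3′ minus 5′ difference, which was highest on that array, was 1.01 ± 0.32 in DMSO, 0.99 ± 0.24 with TCDD and 1.0 ± 0.12 with BaP (SD, n = 3). Its part in the result was not tested beyond a fit with it as a covariate, in which 136 probe sets without a symbol were lower with BaP. With arrays weighted by quality, 89 were lower, against 31.3 at the one-symbol rate.

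The same 132 probe sets had a median log2 change of -0.40 with TCDD in wild-type cells, against -0.03 over all probe sets without a symbol. That value shares its DMSO arrays with the comparison that chose them. In c35 cells, on other arrays, their median change was -0.14 with BaP and -0.18 with TCDD, and 113 and 107 of the 132 were below 0. Both c35 values share the same c35 DMSO arrays, and the 132 probe sets are not replicates. Their means on the single c35 arrays overlapped between treatments. The means were 6.22, 6.18 and 6.05 with DMSO, 5.93, 6.11 and 5.95 with TCDD, and 5.93, 6.17 and 5.96 with BaP. Over all probe sets without a symbol in c35 cells, the medians were -0.01 and -0.02, and 54.0% and 55.9% were below 0. The 40 that rose with BaP had a median change of 0.76, from 0.59 to 2.46, with 7 above 2-fold. Their median BaP change in c35 cells was -0.13.

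The largest rises with BaP included probe sets that rose with both ligands. For 1419149_at, the log2 signals were 10.23, 10.99 and 10.89 in wild-type DMSO, 12.45, 12.38 and 12.39 with TCDD, and 13.16, 13.21 and 13.12 with BaP. All ligand arrays were above all DMSO arrays, with a log2 change of 2.46 ± 0.36 (SE; limma adjusted p = 0.000221) with BaP and 1.70 ± 0.36 (adjusted p = 0.028) with TCDD. In c35 cells, replicates 1 and 2 of DMSO (12.16 and 12.17) and replicate 3 of BaP (12.06) stood well above the other 6 arrays. Those ran from 10.25 to 10.99, so the c35 arrays were split across treatments. The same arrays were the highest of c35 for the AHR battery gene Cyp1a1 (8.32, 8.34 and 8.32, against 4.87 to 6.23). They were also the highest of c35 for Cyp1b1, Xdh and Tiparp, but not for the other measured battery genes. The source of this split was not tested. The TCDD call of 1419149_at was lost without replicate 1 of wild-type DMSO (1.46, limma adjusted p = 0.12) and without any 1 of the 3 TCDD arrays.

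For 1441793_at, the signals were 7.31, 7.40 and 7.16 in DMSO, 8.67, 8.80 and 8.82 with TCDD, and 9.10, 9.15 and 9.04 with BaP. The 3 wild-type groups did not overlap, and the c35 arrays ran level, from 7.09 to 7.29. The log2 change was 1.80 ± 0.08 with BaP (limma adjusted p = 1.69e-11) and 1.47 ± 0.08 with TCDD (adjusted p = 1.13e-09), and both calls held under every alternative tried. For 1430244_at, a dim probe set, the signals were 3.89, 3.70 and 3.66 in DMSO, 4.79, 4.52 and 4.92 with TCDD, and 5.45, 5.31 and 5.56 with BaP. Its groups did not overlap either, with changes of 1.69 ± 0.13 with BaP (limma adjusted p = 1.28e-07) and 1.0 ± 0.13 with TCDD (adjusted p = 0.000307). The bright probe set 1449878_a_at rose by the same amount with each ligand, 0.64 ± 0.09, from 8.03, 8.08 and 8.06 in DMSO to 8.70, 8.69 and 8.68 with BaP and 8.64, 8.69 and 8.73 with TCDD.

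Other probe sets rose with BaP alone at these thresholds. For 1443673_x_at the signals were 7.66, 7.05 and 7.30 in wild-type DMSO, 7.47, 7.32 and 7.18 with TCDD, and 8.72, 8.98 and 9.0 with BaP. The TCDD arrays lay within the DMSO range and the BaP arrays above it, and TCDD minus BaP, tested directly by limma, was -1.58 ± 0.13 (adjusted p = 2.61e-06). For 1421134_at the signals were 6.56, 7.30 and 7.18 in DMSO, 7.40, 7.36 and 7.46 with TCDD, and 8.46, 8.23 and 8.18 with BaP, and its c35 arrays were higher than all of these, from 8.86 to 9.23. Its TCDD minus BaP difference was -0.88 ± 0.13 by limma (adjusted p = 0.00134). Of the other named rises, 1442005_at changed by 1.03, 1445678_at by 1.01 and 1439881_at by 0.95 with BaP. With TCDD they changed by 0.58 (limma adjusted p = 0.016, just under 1.5-fold), 0.79 (0.171) and 0.55 (0.274). For none of them did TCDD and BaP differ when tested directly by limma (adjusted p = 0.0559, 0.787 and 0.432). Without replicate 1 of DMSO the BaP calls of 1445678_at (0.51) and 1439881_at (0.71, limma adjusted p = 0.0516) were lost. Both were also lost without replicate 3 of BaP and with only the arrays of the 2 groups compared.

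The largest fall was that of 1458099_at, with log2 signals of 6.57, 5.48 and 5.46 in wild-type DMSO, 4.95, 5.26 and 4.95 with TCDD, and 3.98, 4.31 and 4.22 with BaP. No ligand array overlapped the DMSO arrays, and the BaP arrays came close to the c35 arrays, which ran from 3.23 to 4.07. The change with BaP was -1.67 ± 0.23 (limma adjusted p = 9.5e-05), and it stayed between -1.86 and -1.30 over the alternatives. For 1446656_at the signals were 9.58, 8.89 and 8.86 in DMSO, 8.48, 8.36 and 8.49 with TCDD, and 7.88, 7.81 and 7.80 with BaP. The 3 groups were in separate steps above the c35 arrays, which ran from 6.47 to 6.81. Its change was -1.28 ± 0.13 with BaP (limma adjusted p = 4.21e-06) and -0.67 ± 0.13 with TCDD (adjusted p = 0.0176).

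For 1442903_at the signals were 8.54, 7.73 and 7.62 in DMSO, 7.11, 7.22 and 7.22 with TCDD, and 6.69, 6.75 and 6.82 with BaP. Again the 3 groups did not overlap, and the c35 arrays ran from 6.34 to 6.81, level with the BaP arrays. The probe set 1442067_at fell from 8.48, 7.24 and 7.59 in DMSO to 6.63, 6.76 and 6.59 with TCDD and 6.04, 6.35 and 6.48 with BaP, while the c35 arrays lay at 5.02 or less. It had the largest fall with TCDD, -1.11 ± 0.22 (limma adjusted p = 0.0197), a call that was lost without replicate 1 of DMSO (-0.75, adjusted p = 0.0647). This call was also lost without any 1 of the TCDD arrays and with only the arrays of the 2 groups compared. The remaining named falls with BaP were 1439586_at (-1.30), 1458096_at (-1.30), 1457910_at (-1.20) and 1458240_at (-1.20).

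The named falls with TCDD were less stable than those with BaP. The probe set 1450876_at fell by 0.94 on the log2 scale with TCDD, from 3.43, 4.16 and 3.80 to 2.89, 2.57 and 3.11 (limma adjusted p = 0.00612), and had 3.30, 3.56 and 2.94 with BaP. These are dim signals, and the call was lost without replicate 2 of TCDD and with only the arrays of the 2 groups compared. Of the others, 1456960_at fell by 0.79, 1442903_at by 0.78, 1445152_at by 0.76, 1446656_at by 0.67, 1440443_at by 0.64 and 1449750_at by 0.63. Each of these 6 calls was lost without replicate 1 of wild-type DMSO, where the falls ran from 0.39 to 0.59. There, 1442903_at and 1446656_at missed only the 1.5-fold limit (limma adjusted p = 0.0345 and 0.0313). Each of the 6 was also lost without replicate 1 of TCDD and with only the arrays of the 2 groups compared. The call of 1440443_at was lost in 10 of 27 settings and that of 1449750_at in 11 of 27. Of the rises, 1455646_at (0.80) was lost without replicate 1 of wild-type DMSO, at 0.53, and without any 1 of the 3 TCDD arrays.

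Tested directly against each other in wild-type cells, the 2 ligands differed for 27 probe sets without a symbol, 10 higher and 17 lower with TCDD. Over all probe sets 0.113% were higher and 0.124% lower with TCDD, and the one-symbol rate gave 10.6 and 5.58. Among those lower with TCDD, 1447227_at had 5.19, 4.64 and 4.48 in DMSO, 4.01, 4.52 and 3.60 with TCDD, and 5.44, 5.76 and 5.44 with BaP. The TCDD and BaP arrays lay far apart, by -1.50 ± 0.19 (limma adjusted p = 0.000337), and the DMSO arrays lay between them with some overlap with TCDD. The bright probe set 1418949_at had 10.66, 10.61 and 10.55 with TCDD and 11.65, 11.46 and 11.44 with BaP, a difference of -0.91 ± 0.07 (limma adjusted p = 6.41e-07). Among those higher with TCDD, 1442470_at (0.90), 1446461_at (0.79) and 1440660_at (0.75) had the largest differences. Their calls were lost in 3, 4 and 3 settings, each with 1 TCDD or BaP array of wild-type cells left out, and the count of 27 ran from 16 to 46 with 1 array left out.

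In untreated cells, the probe sets without a symbol were more often higher in wild-type than in c35 cells. Between wild-type DMSO and c35 DMSO, 858 were called by limma (14.3% of all probe sets were), and of these 688 were higher in wild-type (7.51% of the 9160) and 170 lower (1.86%). Over all probe sets 8.05% were higher and 6.27% lower, and the one-symbol rate at the same signal gave 548 higher and 399 lower. The count was thus 1.26 times the rate for higher and 0.426 times for lower. Without replicate 1 of wild-type DMSO, 494 were higher against 507 at the one-symbol rate (0.974 times), while 194 were lower against 377 (0.515 times). The deficit of lower calls therefore remained without that array, and the excess of higher calls did not. With the brightest probe set of each gene as the comparator the rate gave 431 higher and 291 lower, and with the further probe sets it gave 663 and 509.

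The mean over all 9160 probe sets without a symbol also separated the lines. It was 5.03, 4.94 and 4.96 log2 units in wild-type DMSO and ran from 4.92 to 5.03 over the 9 wild-type arrays, above the range of 4.86 to 4.91 over the 9 c35 arrays. One-symbol probe sets weighted to the same signal overlapped between the lines, from 4.91 to 4.93 in wild-type and from 4.89 to 4.92 in c35 cells. The Actb 3′ minus 5′ difference also did not overlap between the lines, from 0.73 to 1.38 in wild-type and from 0.30 to 0.53 in c35 cells. With it as a covariate, 407 were higher in wild-type (0.824 times the one-symbol rate) and 209 lower (0.599 times), although line and covariate cannot be told apart fully. Its part in the difference was not tested otherwise.

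The separation of the array means was small beside the differences of single probe sets. The probe set 1442561_at had 7.88, 7.13 and 7.29 in wild-type DMSO and 2.63, 2.70 and 2.46 in c35 DMSO, a difference of 4.84 ± 0.15 (limma adjusted p = 1.87e-15). In c35 cells its signal was near the lowest on the array. The probe sets 1416666_at (4.63) and 1424704_at (4.52) followed. In the other direction, 1455090_at had 5.55 ± 0.62 in wild-type DMSO and 9.82 ± 0.27 in c35 DMSO cells (SD, n = 3), without overlap, a difference of -4.28 ± 0.20 (limma adjusted p = 1.29e-12), followed by 1437867_at (-3.52) and 1447135_at (-3.20).

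No probe set without a symbol was called with either ligand in c35 cells at an adjusted p under 0.1, and none of all 45037 probe sets was (0%). The lowest adjusted p of a probe set without a symbol was 1 with BaP and 0.962 with TCDD by limma. At an unadjusted p under 0.05, 464 (5.07%) passed with BaP and 516 (5.63%) with TCDD. By the interaction test, the BaP response was unlike between the lines for 62 probe sets, 34 in the higher and 28 in the lower direction, where over all probe sets 0.728% and 0.311% did (1.04% in either) and the one-symbol rate gave 40.3 and 21.6. The response to TCDD differed for 5 (4 higher and 1 lower), against 0.169% and 0.00666% over all probe sets (0.175% in either). The BaP interaction count rested in part on single arrays, and its lower count ran from 10 without replicate 1 of c35 DMSO to 53 without replicate 2 of wild-type DMSO.

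Most probe sets without a symbol shared a design. Of the 9160, 8600 (93.9%) had the suffix _at, against 77.2% of one-symbol probe sets, and only 112 were _s_at and 252 _x_at. Of the 132 that fell with BaP, 129 were _at, or 1.5% of all _at probe sets without a symbol, while 0.474% of one-symbol _at probe sets fell. They were also concentrated by ID number, which the manufacturer assigned when the array was designed. Of the blocks of 5000 numbers, 3 held more than 30% without a symbol (1440000 to 1444999, 1445000 to 1449999 and 1455000 to 1459999), and together these held 63.8% of the probe sets without a symbol and 25.6% of those with 1 symbol. There, 101 (1.73%) fell with BaP, against 0.470% of one-symbol probe sets in the same blocks, and elsewhere 31 (0.936%) fell, against 0.438%.

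The blocks from 1440000, 1445000 and 1455000 held 44.6%, 37.6% and 34.9% without a symbol, and 2.29%, 1.39% and 1.38% of those fell with BaP. The highest share of falls lay in the block from 1435000 (2.39%), which held only 11.7% without a symbol. The blocks from 1415000 and 1420000 held 214 and 377 probe sets without a symbol, of which 0 and 1 fell. Few also fell in the late blocks from 1450000 (3 of 584, or 0.514%) and 1460000 (1 of 117). In these blocks, in the same order, the one-symbol probe sets fell at 0.301%, 0.447%, 0.397% and 0.164%.

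The likeness of single probe sets to named genes was measured by Pearson correlation over the 18 arrays, which share the line and treatment groups, and is a description without a test. The one-symbol pattern most like 1441793_at was that of Nqo1, a quinone reductase of the AHR battery (0.988). The most like 1430244_at was Pmm1 (0.970), and the most like 1419149_at was Ier3, an immediate early response gene (0.977). The probe set 1443673_x_at was most like Gclc, the catalytic subunit of the enzyme that starts glutathione synthesis (0.954), and 1421134_at was most like Gadd45b, a stress-response gene (0.984). Among those that fell, 1446656_at was most like Alad, an enzyme of heme synthesis (0.988), 1442067_at most like Ttc3 (0.985), 1442903_at most like Rsrc1 (0.967) and 1458099_at most like Mybpc1 (0.972).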

How the data were processed

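The authors deposited a table of log2 signals, made by robust multiarray averaging (RMA) per the submitters' processing notes, with the version not given in the sources used here. Groups came from the labels. Probe sets were named only through GEO's platform annotation of the value table, and 0 value columns were left unused. The members and lists were chosen with earlier results of these data known. The named probe sets were, by rule, those with the largest changes among called members whose compared arrays did not overlap: 8 in each direction for each ligand and 3 for the other comparisons.

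The deposited log2 values were fitted with limma 3.58.1 in R 4.3.3: a mean for each of 6 groups on 18 arrays, eBayes with an intensity trend, and Benjamini-Hochberg adjustment over 45037 probe sets. A call required an adjusted p under 0.05 and a change above 1.5-fold, or in c35 cells an adjusted p under 0.1. On simulated data made for the BaP comparison, 200 of 45037 probe sets were changed. Of those, 67.2% of the 1.6-fold changes and 100% of the 2-fold changes were recovered, with 2 false calls. The simulated noise was independent between probe sets and of equal spread on all arrays. Shifts that many probe sets share on 1 array were therefore not covered. The number of arrays limits the precision. Replicate numbers were not treated as pairs.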

Additional observations from a re-analysis of the deposited data

Results flagged for a closer look

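The responses of some probe sets without a symbol differed between wild-type and c35 cells by the limma interaction test, 62 for BaP (0.677%) and 5 for TCDD (0.0546%). Over all probe sets 1.04% and 0.175% did. The one-symbol rate at the same signal gave 61.9 and 10.3, so neither count exceeded it by more than rounding. For BaP, the wild-type minus c35 difference of the log2 changes was 3.00 for 1419149_at (adjusted p = 0.0026), 1.85 for 1443673_x_at (1e-05), 1.83 for 1441793_at (7.9e-09), 1.52 for 1430244_at (0.000105), 1.44 for 1421134_at (0.000194), 1.33 for 1442005_at (9.22e-05), 0.89 for 1418949_at (1.86e-05) and 0.76 for 1449878_a_at (0.00139). In the lower direction it was -1.48 for 1458099_at (0.0172), -1.39 for 1446656_at (0.000281), -1.26 for 1458096_at (0.031), -1.15 for 1458240_at (0.044), -0.93 for 1447024_at (0.0161), -0.92 for 1442903_at (0.0404) and -0.84 for 1449750_at (0.0295). For TCDD, it was 2.54 for 1419149_at (0.0395), 1.44 for 1441793_at (9.12e-07), 0.95 for 1430244_at (0.0337), 0.76 for 1449878_a_at (0.0045) and -1.01 for 1447024_at (0.0351). The wild-type signals of 1447024_at were 7.27, 6.76 and 6.67 in DMSO and 6.41, 6.29 and 6.26 with TCDD, whereas in c35 cells they were 5.62, 5.32 and 5.63 in DMSO and 5.87, 6.00 and 5.99 with TCDD. Neither change passed the test alone, with -0.58 in wild-type (limma adjusted p = 0.0652) and 0.43 in c35 cells (adjusted p = 0.962). The c35 arrays of 1419149_at were split across treatments, as described above, and those of Cyp1a1, Cyp1b1, Xdh and Tiparp were split in the same way. Some of these calls were not held under the alternatives tried. For TCDD, the call of 1419149_at was lost in 16 of 27 settings, among them the replicate block (limma adjusted p = 0.0718) and any 1 array of wild-type TCDD or c35 TCDD left out. That of 1447024_at was lost in 13 of 27, also with any 1 of these arrays left out, and that of 1430244_at in 8 of 26. For BaP, the call of 1458096_at was lost in 9 of 27 settings and that of 1458099_at in 3 of 26. The calls of 1419149_at, 1443673_x_at, 1441793_at and 1446656_at with BaP and of 1441793_at with TCDD held in all settings run. The remaining interaction values were not recomputed under them.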

How the results depend on the processing

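No named probe set changed direction under any alternative, which their choice largely fixed. They were picked for large changes among called probe sets whose compared arrays did not overlap. Of 443 values of named probe sets under alternatives other than leaving out an array, 27 lost their call, and of 918 values with 1 array left out, 100 did. The cause was not tested, beyond the fewer probe sets or arrays that some settings use. In this order, counts with BaP in either direction, higher and lower, and the same at the one-symbol rate, ranged with 1 array left out over 117 to 267, 32 to 46, 71 to 222, 66.2 to 98.1, 38.2 to 48.6 and 26.4 to 52.6. With TCDD the ranges were 6 to 57, 4 to 10, 2 to 47, 15.5 to 40.2, 13.1 to 27.1 and 2.36 to 13.1. Between the untreated lines they were 688 to 1065, 494 to 900, 165 to 198, 884 to 1015, 507 to 597 and 377 to 435. TCDD against BaP ranged over 16 to 46. The BaP interaction ranged over 36 to 86 (higher 26 to 54, lower 10 to 53), with 36 without replicate 1 of c35 DMSO, and the TCDD interaction over 2 to 12. In c35 cells, the counts were 0 to 3 with BaP and 0 to 1 with TCDD, both highest without replicate 3 of c35 DMSO.

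With probe sets at or above the median signal only, BaP gave 109 (26 higher, 83 lower), with 49.5 and, for lower, 19.9 at the one-symbol rate. TCDD gave 7 lower, with 13.2 in all and 1.89 lower at that rate, TCDD against BaP gave 17, and the untreated lines gave 561 (441 higher), with 584 and 305 at that rate. With no minimum change, BaP gave 344 (111 higher, 233 lower), with 253 (121 and 133, or 1.76 times for lower) at the rate. TCDD gave 33 (12 and 21), with 38.9 (27.8 and 11.1), TCDD against BaP gave 75, and the untreated lines gave 1965 (1378 and 587), with 2240 (1144 and 1096). With only the arrays of the groups compared, BaP gave 81 (54 lower), TCDD 5 (1 lower), with 9.65 (9.06 higher and 0.594 lower) at the rate, TCDD against BaP 47, and the BaP interaction 37 (11 lower). With arrays weighted by quality, TCDD gave 8 higher, TCDD against BaP 43, the interactions 120 for BaP (81 higher) and 23 for TCDD, and TCDD in c35 cells 2. With the Actb covariate, TCDD gave 25 (19 lower), with 6.53 lower at the rate, the untreated lines 407 higher, and the interactions 49 lower for BaP and 10 for TCDD. With the brightest probe set of each gene as the comparator, 2.56 were lower with TCDD at the rate. The comparators of brightest or further probe sets were chosen after seeing the data.

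The replicate block gave 132 lower and 40 higher with BaP and 11 lower and 5 higher with TCDD. Over 45 same-numbered pairs of arrays the correlation of deviations ran from -0.26 to 0.22, and 8 were over 0.1. Deviations from means of 3 arrays cannot decide whether the numbers pair the samples. In each wild-type group replicate 1 had the highest Actb 3′ minus 5′ difference, at 1.38 in DMSO, 1.21 with TCDD and 1.14 with BaP. In no c35 group was it the highest.

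The number of arrays limits these results, and dim probe sets have few calls at this signal over background.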
